A study of Mus musculus with 12 samples.

Results

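The genes described here are 10 members of the mouse fibroblast growth factor (FGF) system, out of 55471 genes in the count table: the signalling receptors *Fgfr1*, *Fgfr2* and *Fgfr3*, the receptor-like gene *Fgfrl1*, the secreted ligands *Fgf1*, *Fgf2* and *Fgf9*, and the intracellular factors *Fgf12*, *Fgf13* and *Fgf14*. They were taken by gene symbol, and the symbols were selected on the difference between *Neuid* KD and control in these same libraries, with the position of *Fgfrl1* near the *Neuid* gene on chromosome 5 also in view. Their levels and fold changes between the groups are therefore given as a description and without p values, and a call on any of them partly restates how they were selected.

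The data are RNA-seq libraries of primary hippocampal neurons with the genotype WT, prepared from E17 embryos of CD1 mice in litters of mixed sex and kept in Neurobasal medium with B27. Antisense LNA gapmers, short oligonucleotides that direct RNase H to a transcript, were given in lipid nanoparticles at DIV 7 (days in vitro), and RNA was collected at DIV 10. The 6 control libraries come from cultures given the negative control gapmer, and the 6 *Neuid* KD libraries from cultures given the gapmer against *Neuid* (Gm10419), a long noncoding RNA. The comparison asks which transcripts differ once *Neuid* is depleted. A single *Neuid* gapmer sequence was used, so loss of *Neuid* and other effects of that oligonucleotide cannot be told apart. Nothing in the labels says that the libraries of a group came from separate preparations, so the spread between them may be technical. Reads on genes numbered 18002585 in the smallest control library, 22173562 at the median and 30914714 in the largest, against 11152556, 23606763 and 30573480 for *Neuid* KD.

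FGFR1, FGFR2 and FGFR3 are receptor tyrosine kinases that bind secreted FGFs together with heparan sulfate and signal through FRS2 and RAS to ETS factors of the Etv family and to feedback inhibitors of the Sprouty and Dusp families. FGFRL1 has a similar extracellular part but no kinase domain, and FGF12, FGF13 and FGF14, called FGF homologous factors, stay inside the cell and bind voltage-gated sodium channels. In brain, *Fgfr1* is transcribed in neurons and other cells, whereas *Fgfr2* and *Fgfr3* are known mainly from glia.

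*Neuid* was measured first as a check of the labels. Its normalized level was 26.0 CPM (counts per mega-read, with library sizes scaled by the TMM method) in the lowest control library, 28.3 at the median and 31.0 in the highest, against 6.32, 8.08 and 9.55 CPM in *Neuid* KD libraries. Every *Neuid* KD library was below every control library, and the mean was 28.4% of control (log2 fold change -1.81 ± 0.08 SE, n = 6 per group, edgeR quasi-likelihood test with Benjamini-Hochberg adjustment, adjusted p = 1.32e-10). The labelled cell type was checked with 15 neuron markers, which summed to 8928 ± 546 CPM in control libraries and 8986 ± 575 after *Neuid* KD (SD, n = 6 each), led by *Map2*, *Stmn2* and *Nefl*. Libraries differed in background within both groups, measured as the summed CPM of 2014 chemosensory receptor genes: 26.7 to 667 CPM in control and 27.1 to 617 CPM in *Neuid* KD libraries.

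Of 19578 genes tested, 477 were called higher in *Neuid* KD (2.44%) and 155 lower (0.792%), where called means an adjusted p under 0.05 and a log2 fold change beyond 0.5 in either direction. With upper-quartile scaling the split was 389 higher and 218 lower, and the lower count was 260 with DESeq2, 269 without *Neuid* KD replicate 1, 282 with 1 RUV factor and 300 with the background covariate. All 10 FGF genes passed the filter on low counts. *Fgfr2*, *Fgfr3*, *Fgfrl1*, *Fgf1* and *Fgf2* were called higher, which is 5 of 10 beside 2.44% of all tested genes, and the other 5 were called in neither direction. In 4 of the 10, all but *Fgf2* of those called, the *Neuid* KD libraries lay wholly above the control libraries, beside 4.13% of all tested genes (1.57% lay wholly below). Nothing is read from these shares, since the genes were chosen by this contrast.

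**Figure D1:**
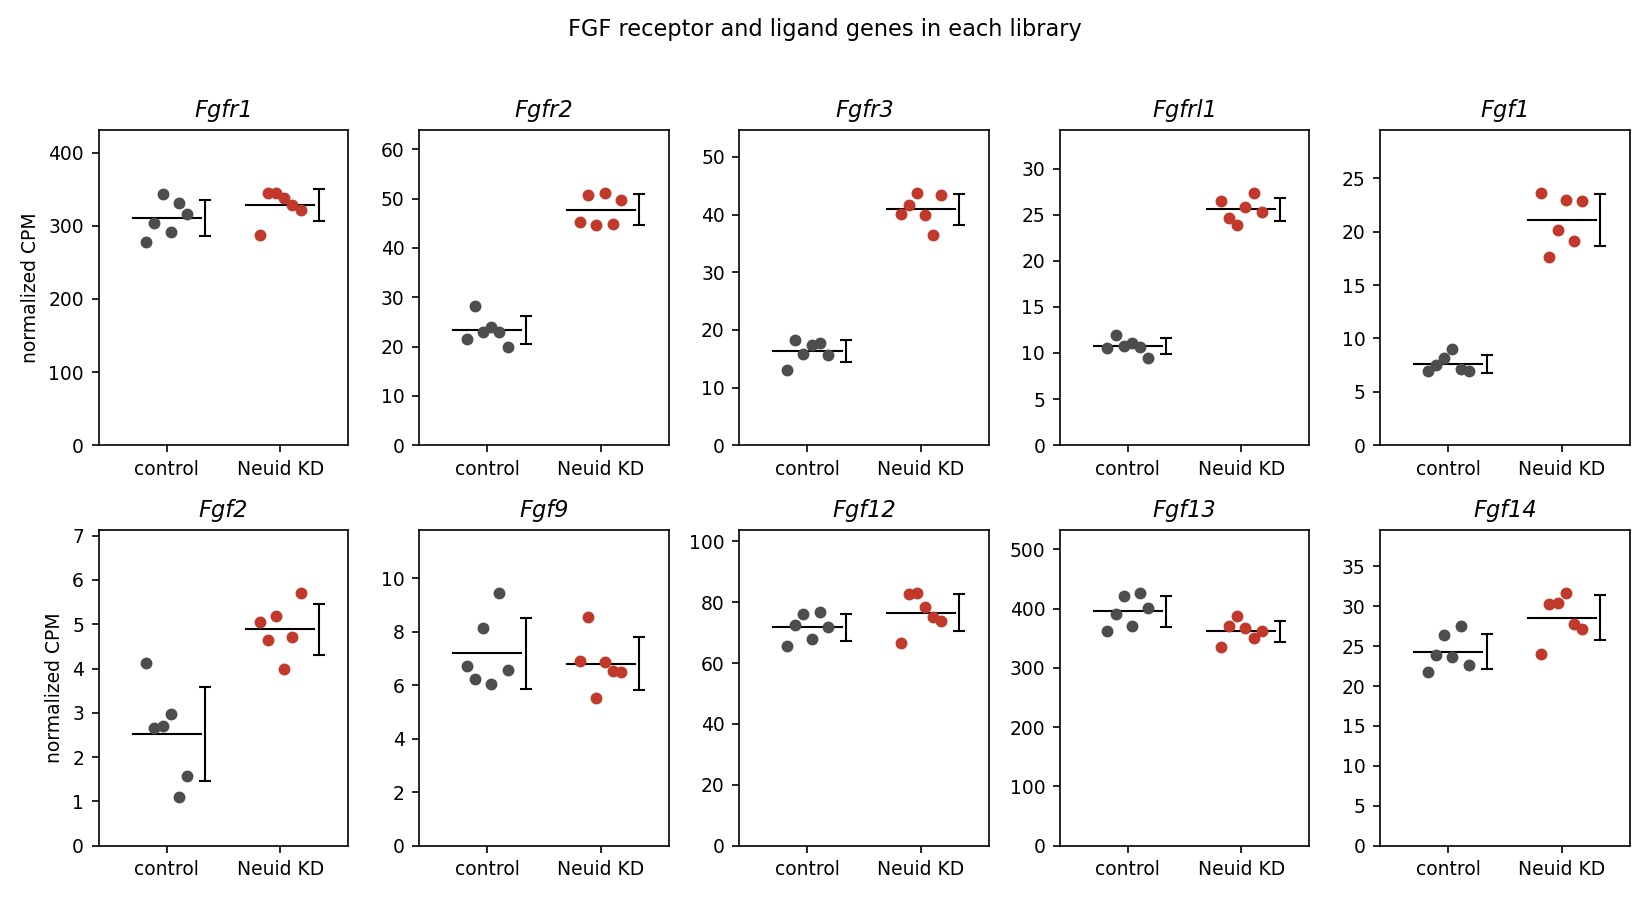
Normalized CPM (vertical axes, each starting at 0) of the 10 FGF genes in 6 control libraries (grey) and 6 *Neuid* KD libraries (red). Each point is a library, the line is the group mean and the bar beside it is 1 SD; *Fgfr2*, *Fgfr3*, *Fgfrl1* and *Fgf1* show no overlap between the groups.

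Among the signalling receptors, *Fgfr3* (ENSMUSG00000054252, chromosome 5, 33721674 to 33737068, plus strand, GRCm38) had 13.0 CPM in the lowest control library, 16.6 at the median and 18.3 in the highest, and 36.5, 40.8 and 43.8 CPM in *Neuid* KD libraries. The lowest *Neuid* KD library was thus well above the highest control library, and no library stood apart within its group. The mean went from 16.3 ± 1.96 to 40.9 ± 2.69 CPM (SD, n = 6 each), a 2.51-fold difference (log2 1.32 ± 0.07 SE). *Fgfr2* (ENSMUSG00000030849, chromosome 7, minus strand) had 19.9, 23.0 and 28.3 CPM at the lowest, median and highest control library, and 44.6, 47.5 and 51.2 CPM in *Neuid* KD libraries. Here too the groups did not overlap, and control replicate 2 was the highest control library for *Fgfr2*, *Fgfr3* and *Fgfrl1* alike. The log2 fold change of *Fgfr2* was 1.04 ± 0.07 (SE).

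*Fgfr1* (ENSMUSG00000031565, chromosome 8, 25513654 to 25575718, plus strand), the receptor with the highest level, had 278, 309.9 and 344 CPM in control and 287, 334 and 345 in *Neuid* KD libraries (lowest, median and highest). These ranges overlapped almost entirely, and the lowest library of each group was replicate 1. Its log2 fold change was 0.08 ± 0.06 (SE), close to the spread between libraries.

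*Fgfrl1* (ENSMUSG00000008090, chromosome 5, 108692382 to 108706924, plus strand) had 9.40 CPM in the lowest control library, 10.7 at the median and 12.0 in the highest. The corresponding values in *Neuid* KD libraries were 23.9, 25.5 and 27.4 CPM. The 6 *Neuid* KD values all exceeded the 6 control values, and the libraries of a group lay close together, with means of 10.7 ± 0.843 and 25.6 ± 1.26 CPM (SD, n = 6 each). The difference was 2.38-fold (log2 1.25 ± 0.06 SE). No annotated gene overlaps *Fgfrl1*, and between 204 and 738 reads were counted on it per library.

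Levels of different receptors can be compared only per length, here as CPM per kb of merged exons. By that measure *Fgfr1* held 78.9% ± 1.95 of the summed level of the 4 receptor genes in control libraries and 62.9% ± 1.74 in *Neuid* KD libraries (SD, n = 6 each). *Fgfrl1*, which cannot signal through a kinase of its own, went from 9.72% ± 0.947 to 17.5% ± 1.41 of that sum, *Fgfr3* from 5.72% ± 0.572 to 10.8% ± 0.751, and *Fgfr2* from 5.66% ± 0.699 to 8.77% ± 0.501. *Fgfr1* thus remained the receptor transcript with the highest level per length in both groups, and its lower share went with the higher levels of the others at a nearly equal level of its own.

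Of the secreted ligands, *Fgf1* (ENSMUSG00000036585, chromosome 18), which binds all FGF receptors with a kinase, had 6.96, 7.30 and 9.00 CPM in control and 17.7, 21.5 and 23.7 CPM in *Neuid* KD libraries (lowest, median and highest). The groups were separate, and *Fgf1* had the highest fold change of the 10 genes, 2.77-fold (log2 1.46 ± 0.09 SE). *Fgf2* (ENSMUSG00000037225, chromosome 3, 37348346 to 37410108, plus strand), a mitogen of neural progenitors and glia, was much lower, at 1.11, 2.68 and 4.13 CPM in control and 3.99, 4.88 and 5.70 CPM in *Neuid* KD libraries. Control replicate 1, at 4.13 CPM, lay above *Neuid* KD replicate 4, at 3.99 CPM, so the groups overlapped by this pair. The log2 fold change of *Fgf2* was 0.95 ± 0.23 (SE), and its call rested on few reads, 24 to 120 per library. Without *Neuid* KD replicate 6, *Fgf2* was not called, at a log2 fold change of 0.87. *Fgf9* (ENSMUSG00000021974, chromosome 14, 58070547 to 58112720, plus strand), a ligand made by neurons and glia, had 6.03, 6.63 and 9.44 CPM in control and 5.52, 6.69 and 8.54 CPM in *Neuid* KD libraries. Its groups overlapped throughout, with a log2 fold change of -0.08 ± 0.12 (SE).

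The intracellular FGF homologous factors were the members with the smallest differences beside *Fgfr1* and *Fgf9*. *Fgf13* (ENSMUSG00000031137, chromosome X, 59062145 to 59568071, minus strand), which also binds microtubules, had 361, 396 and 426 CPM in control and 335, 364 and 387 in *Neuid* KD libraries. The groups overlapped, at a log2 fold change of -0.13 ± 0.05 (SE). *Fgf12* (ENSMUSG00000022523, chromosome 16, 28160098 to 28753068, minus strand) had 65.8, 72.2 and 76.9 CPM in control and 66.6, 76.8 and 83.0 CPM in *Neuid* KD libraries, with a log2 fold change of 0.10 ± 0.06 (SE). *Fgf14* (ENSMUSG00000025551, chromosome 14, 123977907 to 124677127, minus strand), a gene of inherited ataxia, had 21.7, 23.8 and 27.5 CPM in control and 24.0, 29.1 and 31.6 CPM in *Neuid* KD libraries. It lay higher on the whole with overlapping groups (log2 0.24 ± 0.07 SE), under the fold needed for a call. The reads of isoforms that start at different promoters were counted together for each of these genes. Per length, *Fgf13* held 85.0% ± 0.261 of the summed level of *Fgf12*, *Fgf13* and *Fgf14* in control and 82.5% ± 0.687 in *Neuid* KD libraries (SD, n = 6 each).

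Ordered by CPM per kb in control libraries, the members ran from *Fgf13* (98.3 ± 6.51), *Fgfr1* (31.5 ± 2.52), *Fgf12* (11.6 ± 0.708), *Fgf14* (5.81 ± 0.526) and *Fgfrl1* (3.86 ± 0.303) to *Fgfr3* (2.28 ± 0.273), *Fgfr2* (2.25 ± 0.274), *Fgf9* (1.55 ± 0.286), *Fgf1* (1.39 ± 0.149) and *Fgf2* (0.372 ± 0.158; SD, n = 6 each). The ranges of neighbours in this order were apart except from *Fgfr3* to *Fgf1*, where each overlapped the next. In *Neuid* KD libraries *Fgfrl1* (9.19 ± 0.453 CPM per kb) stood above *Fgf14* (6.83 ± 0.67), with ranges apart. *Fgf1* (3.86 ± 0.446) stood above *Fgf9* (1.46 ± 0.212), again with ranges apart.

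Some reads could belong to overlapping genes. For genes on opposite strands this depends on the strand setting of the counting, which is not given in the sources used here. *Fgfr1* shares exonic bases with Gm16159 on the opposite strand, which was at 0.433 and 0.407 CPM in control and *Neuid* KD libraries and was not tested. The annotated body of *Fgfr2* shares exonic bases with *Ctbp2* on the same strand through a long readthrough transcript, and *Ctbp2* had a log2 fold change of 0.03 ± 0.07 (SE). *Fgf2* shares exonic bases with *Nudt6* on the opposite strand (log2 -0.09 ± 0.28 SE), and *Fgfr3* with G630022F23Rik (log2 0.02 ± 0.42 SE), at 1.55 and 0.816 CPM in control libraries. *Fgf14* shares exonic bases with Gm28932 on the opposite strand, whose mean was 3.75 CPM without and 4.62 with *Neuid* KD (log2 0.31 ± 0.18 SE), and the part of its reads in the level of *Fgf14* was not tested. *Neuid* itself shares exonic bases at its start with Gm42517 on the opposite strand, which had 17.6 ± 1.26 CPM in control and 19.8 ± 2.11 in *Neuid* KD libraries.

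The differences were also taken within libraries of like background. Among the 7 libraries with at least 100 CPM of chemosensory receptor genes (4 control, 3 *Neuid* KD), the log2 fold change was 1.30 for *Fgfrl1*, 1.32 for *Fgfr3*, 1.00 for *Fgfr2*, 1.53 for *Fgf1* and 0.89 for *Fgf2*. Among the 5 libraries under 100 CPM (2 control, 3 *Neuid* KD) the values were 1.18, 1.29, 1.06, 1.37 and 1.19 in the same order. *Fgf9* had 0.06 in the former and -0.35 in the latter, so it has no direction that holds in both. *Fgfr1* had 0.08 and -0.01, the latter a fitted value too near 0 to give a direction. Its mean went from 297 to 313 CPM in the former and from 338 to 343 CPM in the latter. *Fgf14* had 0.21 and 0.17 (21.7 to 23.9 against 24.0 to 27.8 CPM, and 26.4 to 27.5 against 30.3 to 31.6 CPM). Over all 12 libraries its groups overlapped. *Fgf12* had 0.06 in both and *Fgf13* -0.12 and -0.21. Groups of 2 to 4 libraries can lie apart by chance. The share of all tested genes that did so in each part was not counted, so nothing is read from it.

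The FGF pathway outside the 10 members was covered by 107 genes in 6 lists, of which 99 were tested. These lists and the marker lists below were chosen with earlier results of these data known. Their counts and p values are therefore a description and no independent support. Of these, 5 were called higher and 1 lower, beside 2.44% and 0.792% of all tested genes. The median log2 fold change of the 99 was 0.01, beside -0.03 over all tested genes. Without the fold threshold, 16 passed the adjusted p in the higher and 3 in the lower direction (6.31% and 2.42% of all tested genes).

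Heparan sulfate proteoglycans and their enzymes, which hold FGFs at the receptor, had 3 of 22 tested genes called higher and 1 lower (median log2 0.08), beside 2.44% and 0.792% of all tested genes, and 14 had an unadjusted p under 0.05 (18.8% of all tested genes), 9 in the higher and 5 in the lower direction. The glypicans *Gpc6* (log2 1.57 ± 0.10 SE, adjusted p = 8.79e-09) and *Gpc5* (log2 1.20 ± 0.14 SE, adjusted p = 9.26e-06) and the syndecan *Sdc4* (log2 0.77 ± 0.08 SE, adjusted p = 1.71e-06) rose, from 4.13, 3.36 and 9.68 CPM in control to 12.3, 7.65 and 16.5 CPM in *Neuid* KD libraries. The sulfotransferase *Ndst3* fell from 12.5 to 6.86 CPM (log2 -0.86 ± 0.12 SE, adjusted p = 8.77e-05). The most abundant gene of the list, *Sdc3*, was at 657 and 713 CPM and was not called.

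Feedback regulators and transcriptional targets of FGF signalling had 2 of 18 tested genes called higher and none lower, beside 2.44% and 0.792% of all tested genes. In this list 12 had an unadjusted p under 0.05, 8 in the higher and 4 in the lower direction, beside 18.8% of all tested genes. DESeq2 likewise called 2 higher and 0 lower. *Il17rd*, which encodes the FGF signalling inhibitor SEF, rose from 12.9 to 36.2 CPM (log2 1.49 ± 0.08 SE, adjusted p = 4.66e-10). *Etv4*, an ETS factor, rose from 9.07 to 22.5 CPM (log2 1.31 ± 0.07 SE, adjusted p = 8.15e-10). Both were higher in 6 of 6 *Neuid* KD libraries than in any control library. Without the fold threshold 7 genes of this list passed in the higher and 1 in the lower direction, those not called being *Egr1* (log2 0.48), *Etv5* (log2 0.39), *Spred1* (log2 0.37), *Dusp6* (log2 0.33), *Spry2* (log2 0.30) and, lower, *Etv1* (log2 -0.40), which are named here after their values were seen.

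None of the 27 signal transducers was called with edgeR or with DESeq2. An unadjusted p under 0.05 was found for 11, 9 in the higher and 2 in the lower direction, beside 18.8% of all tested genes. Without the fold threshold 3 passed the adjusted p in the higher and 1 in the lower direction. The most abundant was *Pik3r1* (309 and 274 CPM in control and *Neuid* KD, log2 -0.17 ± 0.07 SE). *Gab1*, an adaptor of the FGFR and other receptors, came nearest to a call, at 24.3 and 34.4 CPM and a log2 fold change just under the threshold (adjusted p = 3.07e-06), and is named after its value was seen. Of 16 other FGF ligands 9 were tested and none was called by edgeR or DESeq2, with 1 at an unadjusted p under 0.05; *Fgf11*, another FGF homologous factor, was at 15.6 and 13.6 CPM and *Fgf18* at 8.13 and 7.58 CPM. Of 11 genes for FGFR4, the klothos and other FGF partners 10 were tested and none was called by either tool, with 2 at an unadjusted p under 0.05. The most abundant of these, *Ncam1* (1174 and 1162 CPM) and *L1cam* (502 and 454 CPM), are adhesion molecules that bind FGF receptors, and *Fgfr4* was at 0.896 and 0.49 CPM. The sodium channels that FGF homologous factors bind had 13 tested genes and no call by either tool, with 4 at an unadjusted p under 0.05, all lower. *Scn2a* was at 609 and 545 CPM (log2 -0.16 ± 0.06 SE) and *Scn8a* at 198 and 206 CPM (log2 0.06 ± 0.08 SE).

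*Fgfrl1* starts 314 kb downstream of the end of *Neuid* (108367769 to 108378239), and both lie on the plus strand of chromosome 5. Within 500 kb of *Neuid* the annotation has 45 genes including both, of which 26 were tested. Apart from *Neuid* and *Fgfrl1*, none of the other 24 was called with edgeR or DESeq2. With edgeR 2.44% of all tested genes were called higher and 0.792% lower, and at such shares 24 genes can easily hold no call. Of the 24, 5 had an unadjusted p under 0.05, beside 18.8% of all tested genes, all higher. Their log2 fold changes ran from -0.56 to 0.21. *Fgfrl1* was selected on its difference, so its place outside that range partly restates the selection. All 10 protein-coding genes between *Neuid* and *Fgfrl1* were among those tested. The nearest protein-coding neighbours of *Fgfrl1* on the *Neuid* side, *Idua* (1.53 ± 0.187 CPM in control and 1.44 ± 0.406 in *Neuid* KD) and *Slc26a1* (1.74 ± 0.477 and 1.61 ± 0.452), overlapped between the groups, at log2 fold changes of -0.09 ± 0.26 and -0.10 ± 0.27 (SE). Those on the far side, *Rnf212* (0.295 and 0.13 CPM) and *Tmed11* (at most 1 read in any library), were too low to be tested.

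**Figure D2:**
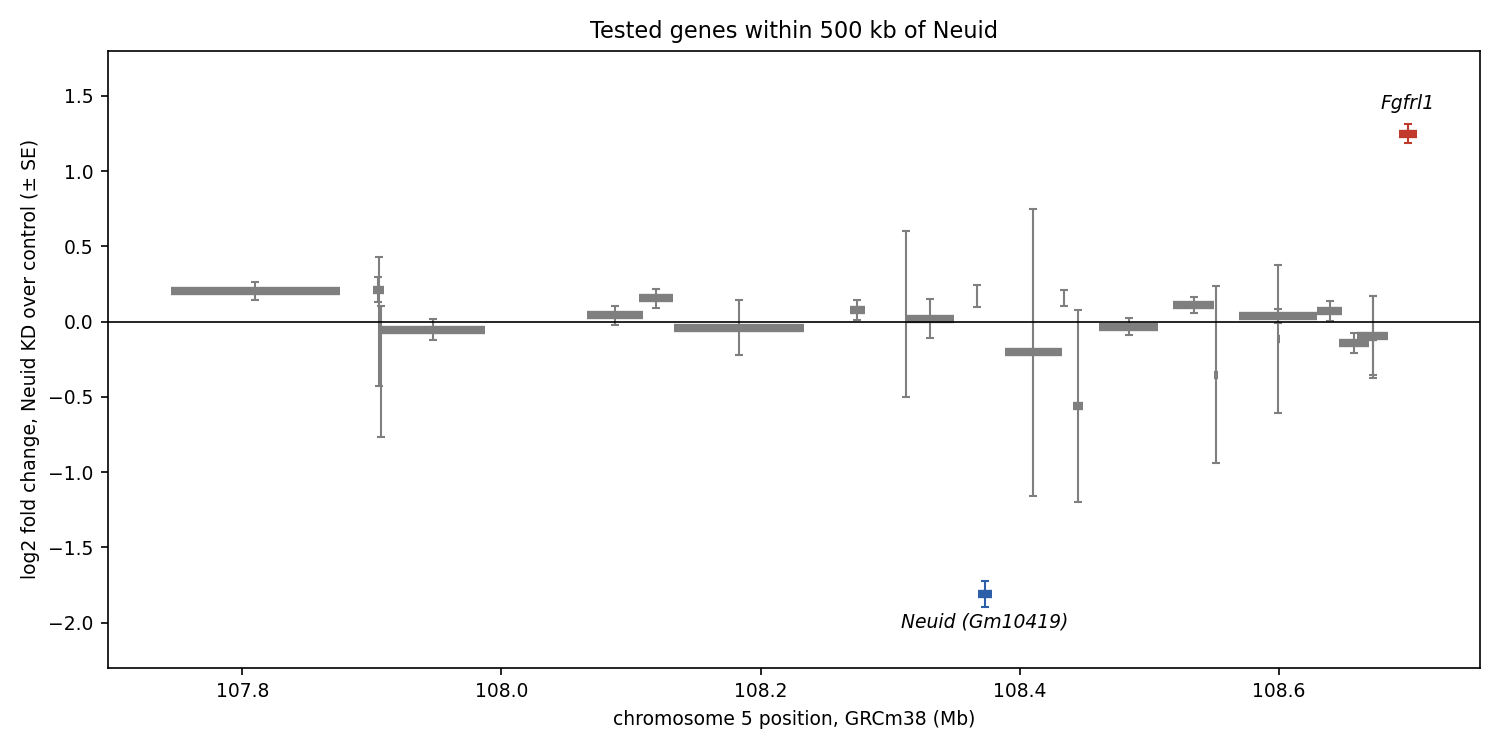
Log2 fold change of *Neuid* KD over control (vertical axis, bars are 1 SE) against position on chromosome 5 (horizontal axis, Mb, GRCm38) for the 26 tested genes within 500 kb of *Neuid*. Horizontal segments span each gene. *Neuid* (blue, -1.81), the gapmer target, and *Fgfrl1* (red, 1.25), selected on its difference, lie outside the range of the other genes (grey), -0.56 to 0.21.

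Markers of other cell types moved in the same libraries. Of 22 astrocyte markers 21 were tested and 17 were called higher, beside 2.44% of all tested genes. A log2 fold change above 0 was found for 8698 of the 19578 tested genes and for all 21 markers (median 1.31). Their summed level was 2565, 2999 and 3225 CPM in the lowest, median and highest control library and 6240, 6750 and 6937 CPM in *Neuid* KD libraries, so the groups did not overlap, and the sum was 2.25-fold higher on average. The most abundant were *Slc1a2* (1185 and 1834 CPM), *Apoe* (245 and 1189 CPM) and *Slc1a3* (343 and 817 CPM), whereas *Gjb6* was near 0 in both groups (0.0894 and 0.401 CPM). The fold changes of *Fgfr3*, *Fgfrl1*, *Fgf1*, *Fgfr2* and *Fgf2*, log2 0.95 to 1.46, lay inside the range of this list, 0.35 to 2.64. In bulk RNA, fewer or more cells of a type and less or more RNA per cell cannot be told apart, and the part of astrocyte transcripts in the levels of the FGF genes was not tested.

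Oligodendrocyte precursor markers summed to 105 to 122 CPM in control (median 111) and 255 to 302 CPM in *Neuid* KD libraries (median 277). Of 10 tested 3 were called higher, beside 2.44% of all tested genes, led by *Olig1* (78.2 and 216 CPM) and *Olig2* (10.5 and 33.6 CPM). *Olig1* held most of the sum in both groups. The median log2 fold change of the list was 0.13, with 7 of 10 above 0. *Cspg4* (8.08 and 9.12 CPM) was not called, and the defining *Sox10* was at 1.04 and 1.12 CPM. Myelinating oligodendrocyte markers had 6 of 10 genes tested and 1 called, *Mbp*, lower (8.11 and 5.14 CPM), beside 0.792% of all tested genes. *Cnp* was at 14.1 and 15.3 CPM, and *Mog*, *Mag*, *Cldn11* and *Opalin* were under 1 CPM. The sum was 28.0 to 40.7 CPM in control and 23.8 to 39.6 CPM in *Neuid* KD libraries. The part of both lists in the FGF result was not tested. None of the 15 neuron markers was called by edgeR or DESeq2, with 4 at an unadjusted p under 0.05, 1 passing the adjusted p in each direction without the fold threshold, and a median log2 fold change of -0.0023.

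Microglia and endothelial markers were low beside those of astrocytes. The former summed to 6.80 to 14.6 CPM in control and 6.12 to 13.9 CPM in *Neuid* KD libraries, led by *Aif1*, *Csf1r* and *Ptprc*, with 7 of 10 under 1 CPM in both groups, *Tmem119* and *P2ry12* among them. The latter summed to 7.40 to 32.3 CPM and 7.49 to 27.4 CPM, led by *Kdr* (7.40 and 7.36 CPM), *Vwf* and *Pecam1*. Both sums were highest in replicate 1 of each group, the libraries with the most background (667 and 617 CPM of chemosensory receptor genes). The part of background reads in these sums was not tested. None of 4 and 7 tested genes was called by either tool, and 0 had an unadjusted p under 0.05. Fibroblast and mural cell markers (102 to 136 CPM in control, 81.0 to 97.0 CPM in *Neuid* KD, led by *Fn1*, *Dcn* and *Rgs5*) had 10 tested genes and no call by either tool, and their sums did not overlap between the groups. The most abundant of them, *Fn1*, was at 60.8 and 43.8 CPM and passed the adjusted p in the lower direction, under the fold needed for a call (log2 -0.46 ± 0.10 SE, adjusted p = 0.00522); it was the only 1 with an unadjusted p under 0.05. The part of these lists in the FGF result was not tested. Proliferating cell markers (167 to 184 CPM and 152 to 182 CPM, led by *Mki67*, *Top2a* and *Mcm2*) had 10 tested genes and no call by edgeR; 1 had an unadjusted p under 0.05, and DESeq2 called 1 lower.

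**Figure D3:**
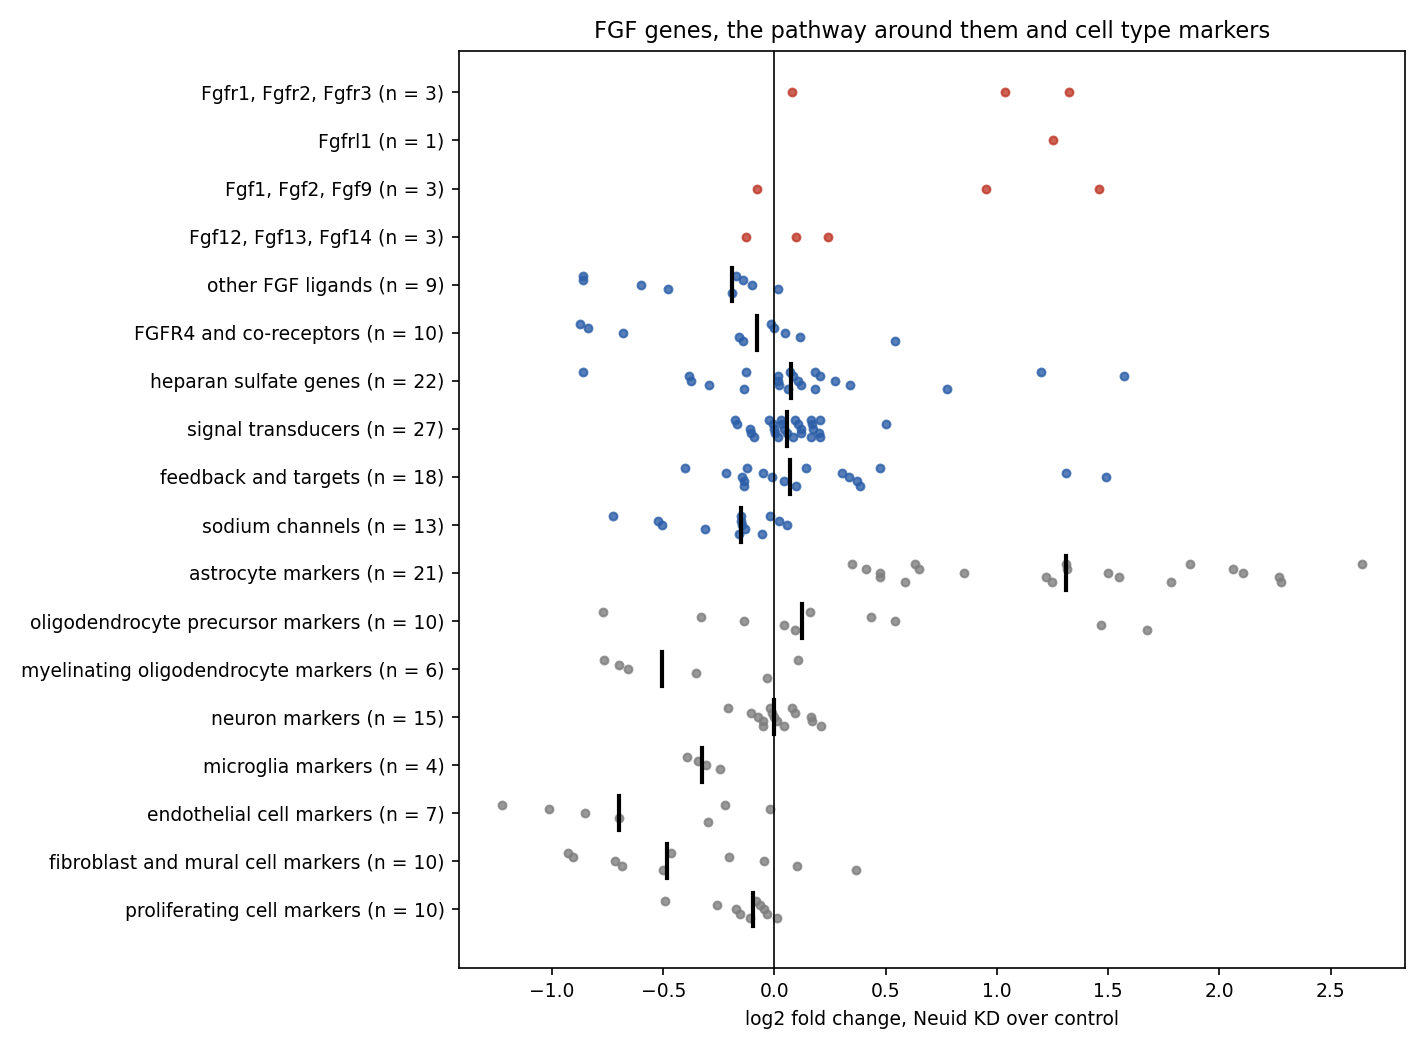
Log2 fold change of *Neuid* KD over control (horizontal axis) for each tested gene of the FGF members (red, by role), the FGF pathway lists (blue) and the cell type marker lists (grey). Each point is a gene and the vertical black bar is the median of a list with more than 3 genes; the astrocyte list has a median of 1.31 and the neuron list lies between -0.21 and 0.21.

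The genes most like each of 4 members across the 12 libraries were taken by Pearson's r of log2 CPM over the 15205 tested genes whose mean reached 1 CPM, as a description. For *Fgfrl1* they were *Igfbp2* (r = 0.993), *Ntm* (r = 0.99) and *Htra1* (r = 0.989), and for *Fgfr3* they were *Sfxn5* (r = 0.996), *Aqp4* (r = 0.995) and *Slc38a3* (r = 0.993). As the groups do not overlap for *Fgfrl1* and *Fgfr3*, these values largely repeat the difference between groups. *Fgf13* was most like 5031439G07Rik (r = 0.958), *Fstl1* (r = 0.948) and *Dpysl3* (r = 0.946), and *Fgfr1* most like *Ptpro* (r = 0.986), *Gabra4* (r = 0.978) and *Zfp60* (r = 0.978). The libraries differ in background and depth as well as in group, so r does not separate these.

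Promoter sequence from RefSeq (GRCm38.p6) was found for 8 of the 10 members, as 15 windows of 300 bases around annotated starts. On both strands, 3 short motifs were searched: CCGGAAGT, bound by ETS factors such as the Etv proteins; CAGCTG, an E-box of basic helix-loop-helix factors; and ACAATG, bound by SOX proteins. Of all 32851 promoter windows, 3.89%, 16.3% and 12.6% hold them. Among the windows of the members, CCGGAAGT was in 1, that of *Fgfrl1*, CAGCTG in 3, of *Fgfr3*, *Fgf13* and *Fgf14*, and ACAATG in 0. A match of letters is a description and shows no binding. For each of the chromosome 5 receptors, whose levels were higher together, the window holding a motif is printed 5′ to 3′ on the plus strand with the motif in capitals. That of *Fgfrl1* (chr5:108693979-108694278) lies within the GENCODE gene, with 49 bases exonic and 251 intronic, and that of *Fgfr3* (chr5:33721474-33721773) has its last 100 bases in an exon of the gene and the others upstream of it.
Fgfrl1: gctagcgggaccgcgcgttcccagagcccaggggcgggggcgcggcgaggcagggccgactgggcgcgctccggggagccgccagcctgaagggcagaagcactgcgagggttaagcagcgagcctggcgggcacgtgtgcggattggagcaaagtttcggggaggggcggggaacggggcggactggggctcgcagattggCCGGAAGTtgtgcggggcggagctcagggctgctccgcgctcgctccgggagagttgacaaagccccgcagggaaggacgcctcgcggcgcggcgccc
Fgfr3: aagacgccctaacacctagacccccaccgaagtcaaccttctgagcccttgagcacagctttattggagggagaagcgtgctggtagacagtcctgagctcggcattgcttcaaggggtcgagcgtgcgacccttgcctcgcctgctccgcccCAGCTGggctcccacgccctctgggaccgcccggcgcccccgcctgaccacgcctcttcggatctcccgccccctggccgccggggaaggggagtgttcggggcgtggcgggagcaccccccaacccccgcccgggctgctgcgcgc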

How the data were processed

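The authors converted, aligned (STAR, mm10, the assembly also named GRCm38) and counted the reads of 12 libraries made with a stranded total RNA kit, and deposited read counts per gene without normalization; the strand setting of the counting is not given in the sources used here. Symbols and positions from GENCODE on GRCm38 were found for 55230 of 55471 genes. For each gene kept by the low-count filter of edgeR (4.0.16), TMM-scaled counts entered its quasi-likelihood F test with group as the only term, with Benjamini-Hochberg adjustment over 19578 genes; CPM are counts over the scaled library size, and log2 CPM used a prior count of 2. The fit was also run on simulated counts. These lacked the differences in background between the libraries, so that run does not cover them.

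The members and the gene lists were chosen with earlier results of these data known. Lists were 6 of the FGF pathway and markers of astrocytes, oligodendrocyte precursors, myelinating oligodendrocytes, neurons, microglia, endothelial cells, fibroblasts and mural cells, and proliferating cells. Genes named by rule were the members, *Neuid*, the called genes of each pathway list (at most 5, mean at least 1 CPM) or else up to 2 of its most abundant tested genes, called genes within 500 kb of *Neuid* with the 2 nearest protein-coding genes on each side of *Fgfrl1*, up to 3 of the most abundant markers of each list, and the 3 genes most like each of *Fgfrl1*, *Fgfr3*, *Fgf13* and *Fgfr1*. Other genes, such as defining markers with low levels, uncalled genes that passed the adjusted p and the most abundant gene of a list with calls, were named after their values were seen. Alternatives were other scalings, DESeq2 (1.42.0), filters, no fold threshold, a background covariate, libraries split at 100 CPM of background, 1 RUV factor, GC and length offsets, thinning, a replicate block and leaving out each library.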

Additional observations from a re-analysis of the deposited data

Results flagged for a closer look

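In *Neuid* KD replicate 1, the library with the fewest reads (11152556), 3 of the named pathway genes lay far below the other libraries of the group. *Ncam1* was at 945 CPM, with the others between 1155 and 1249.8 CPM. *Pik3r1* was at 224 CPM, against 274 to 296 CPM, and *Scn8a* at 153 CPM, against 210.02 to 224 CPM. Chance alone puts about 1 in 20 groups of 6 past the cut used for this. In all, 66 groups were examined, those of the 10 FGF genes, *Neuid*, the named pathway genes and the marker sums. The other pathway genes were not examined for this. As all 3 values lie in the same library, they are not independent, and their count cannot be set against that share. None of the 10 FGF genes had such a library in either group.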

How the results depend on the processing

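*Neuid* was called lower under all 24 refits, at log2 -1.93 to -1.74. *Fgfr2*, *Fgfr3*, *Fgfrl1* and *Fgf1* were called higher under all 24 and *Fgf2* under 23, the exception being the fit without *Neuid* KD replicate 6. As these genes were chosen by this contrast in the same libraries, such counts describe how the values vary between refits and do not test the difference. The log2 fold changes ran from 1.18 to 1.30 for *Fgfrl1*, 1.26 to 1.35 for *Fgfr3*, 0.98 to 1.09 for *Fgfr2*, 1.37 to 1.53 for *Fgf1* and 0.80 to 1.19 for *Fgf2*. *Fgfr1*, *Fgf9*, *Fgf12*, *Fgf13* and *Fgf14* were called in none of the 24, and without the fold threshold the members called came to 6, with *Fgf14* added. Over all tested genes, the 155 lower calls became 260 with DESeq2, 300 with the background covariate, 282 with 1 RUV factor and 269 without *Neuid* KD replicate 1, the library with the fewest reads; leaving out each library in turn gave 123 to 269 lower and 414 to 475 higher calls. Without the fold threshold the counts were 1235 higher and 473 lower by construction, 16 higher and 3 lower for the FGF pathway, and 1 higher, *Evi5*, for the other genes within 500 kb of *Neuid*. In the 5 libraries under 100 CPM of background 2 pathway genes were called lower. The cause of the other shifts was not tested. Upper-quartile scaling moved the median of all genes by -0.06 (log2), and testing without a filter, which adds genes with few reads, by -0.12. With the replicate block 474 genes were called higher and 167 lower, and the members called remained 5. The labels do not say whether equal replicate numbers pair libraries. The correlation of deviations ran from -0.64 to 0.77 over the 6 pairs, and 3 of 12 libraries correlated best with their own number. Background also differs between the libraries, so these values do not settle it. *Fgf2* had the fewest reads of the members, 24 in control replicate 5, and was still called with the counts thinned to the smallest library (log2 0.82).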
